A study of Mus musculus with 33 samples.

Results

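The genes described here are 9 genes of calcium binding, carbohydrate binding and the cytoskeleton that T cells are known to raise after activation, namely S100a4, S100a6, S100a10, S100a11, Lgals1, Lgals3, Vim, Crip1 and Ahnak. They were chosen by symbol through their Ensembl identifiers and are 9 of the 31054 features counted in each library. The choice was made with earlier results of these data known, so counts of members beside shares of all genes are descriptions. Their read counts were followed over 33 bulk RNA-Seq libraries, 3 for each of 11 subsets sorted from DEREG mice. These mice carry the diphtheria toxin receptor with EGFP under the Foxp3 promoter, so that GFP marks regulatory T cells (Tregs). Naive mice had no transplant and no treatment. Tolerant mice had received 4000 islet equivalents of porcine neonatal islet cell clusters (NICC) under the renal capsule, 500 µg of the anti-CD154 antibody MR-1 on days 0, 2, 4 and 6 and 500 µg of CTLA4-Fc on day 0, and were used for sorting at day 100. The 7 Treg subsets were CD4+GFP+ cells, taken without a CD127 gate from the spleen (SP/naive Tregs) and draining lymph node (DLN/naive Tregs) of naive mice, from the grafts of tolerant mice (graft Tregs), and, divided into CD127-/lo and CD127hi cells, from tolerant spleens and DLN. The 4 subsets without Foxp3 were CD4+GFP- T cells from naive and tolerant spleens (SP/naive and SP/tolerant CD4+ T cells) and splenic CD45+CD4- cells of either condition, the last sorted after depletion with CD4 beads. By the study's description tolerant mice were male, and naive mice were 3 males for spleen and 3 females for lymph node samples. Each sample pooled 3 to 4 mice. Transplant, antibodies and time differ together between tolerant and naive mice and cannot be told apart, nor can sex in comparisons with DLN/naive Tregs, and the age of the mice was not given in the sources used here.

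S100 proteins are small proteins with EF-hand calcium-binding motifs that act through partners. S100a10 is the light chain of the annexin A2 complex and, unlike its relatives, does not need calcium, S100a11 partners with annexin A1, S100a4 binds non-muscle myosin and S100a6 (calcyclin) is a calcium sensor linked to proliferation. Galectins bind beta-galactosides on glycoproteins, and galectin-1 (Lgals1) is secreted by Tregs while galectin-3 (Lgals3) is abundant in macrophages. Vimentin (Vim) forms intermediate filaments, Crip1 is a small LIM-domain protein, and Ahnak is a giant scaffold under the plasma membrane that binds the annexin A2 and S100a10 complex and supports calcium entry in T cells. In resting T cells these genes are known to be low, and they are higher in effector, memory and tissue-resident cells.

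All 4 S100 genes lie on chromosome 3 of GRCm38 on the plus strand and form 2 pairs of neighbours. S100a4 (ENSMUSG00000001020, 90603771 to 90606045) is 6836 bases from S100a6 (ENSMUSG00000001025, 90612882 to 90624181), and S100a11 (ENSMUSG00000027907, 93520488 to 93526287) is 28792 bases from S100a10 (ENSMUSG00000041959, 93555080 to 93564643). The other members are on chromosomes of their own, Lgals1 (ENSMUSG00000068220) on 15, Lgals3 (ENSMUSG00000050335) on 14, Vim (ENSMUSG00000026728) on 2, Crip1 (ENSMUSG00000006360) on 12 and Ahnak (ENSMUSG00000069833) on 19. Of the 584 exonic bases of S100a4, 302 are shared with Gm42674, a gene of the same strand that was counted at 0 in every library, so reads on the shared bases may have been left out as ambiguous and the level of S100a4 may be understated.

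RefSeq promoters on GRCm38.p6 were at hand for 7 members, and S100a10 and Lgals1 were not among them. The 250 bases before the RefSeq start of 3 S100 genes and of Ahnak are shown because these genes were high in the same Treg subsets. The stretches can be read for shared letters. For S100a6 and S100a11 the window runs past the gene start given above. Capitals mark matches on either strand to TGANTCA (the AP-1 motif), GGGCGG (the GC box) and TATAAA (the TATA motif), none of which overlap here. The windows lie on the plus strand at chr3:90603520-90603769 (S100a4), chr3:90612644-90612893 (S100a6), chr3:93520246-93520495 (S100a11) and chr19:8989034-8989283 (Ahnak).
S100a4: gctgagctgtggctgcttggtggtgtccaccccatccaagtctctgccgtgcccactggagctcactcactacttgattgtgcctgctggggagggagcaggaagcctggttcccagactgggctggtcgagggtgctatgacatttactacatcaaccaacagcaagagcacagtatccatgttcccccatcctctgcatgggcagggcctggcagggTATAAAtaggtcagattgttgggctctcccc
S100a6: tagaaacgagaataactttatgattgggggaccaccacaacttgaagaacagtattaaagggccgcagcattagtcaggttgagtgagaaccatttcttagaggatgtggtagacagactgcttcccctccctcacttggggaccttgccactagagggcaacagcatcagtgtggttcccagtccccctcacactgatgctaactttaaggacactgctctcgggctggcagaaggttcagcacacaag
S100a11: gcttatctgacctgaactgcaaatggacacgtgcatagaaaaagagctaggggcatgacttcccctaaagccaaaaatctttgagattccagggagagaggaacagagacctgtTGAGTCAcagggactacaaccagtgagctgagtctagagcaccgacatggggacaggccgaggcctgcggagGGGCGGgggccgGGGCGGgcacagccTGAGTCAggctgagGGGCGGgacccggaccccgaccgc
Ahnak: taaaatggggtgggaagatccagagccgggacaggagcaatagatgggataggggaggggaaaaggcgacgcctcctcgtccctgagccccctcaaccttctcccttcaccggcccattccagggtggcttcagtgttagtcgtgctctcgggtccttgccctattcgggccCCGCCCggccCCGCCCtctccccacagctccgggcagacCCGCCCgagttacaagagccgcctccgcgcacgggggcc
The 3 S100 promoters had no motif in common. S100a4 held a TATA motif at bases -31 to -26, S100a11 held 2 AP-1 motifs and 3 GC boxes, Ahnak held 3 GC boxes, and S100a6 held none of these letters. Over the 7 members, 1 held an AP-1 motif, 4 a GC box and 2 a TATA motif. Among all 32851 RefSeq promoters of this length, 6.75% held the AP-1 motif, 32.7% the GC box and 12.4% the TATA motif.

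The 24 spleen and graft libraries had 2550698 to 4615283 read pairs on genes and were sequenced on a NextSeq 500. The 9 DLN libraries had 844039 to 1935323 and were sequenced on a MiSeq, so for DLN values the tissue and the sequencer cannot be told apart. Levels are given as CPM, the count scaled to 1e6 read pairs on genes. Each library total was first multiplied by its TMM factor, a scaling factor for composition. Without that factor, 3 counts, the limit that a count of 0 allows, correspond to 0.650 to 1.18 CPM in spleen and graft. In the DLN they correspond to 1.55 to 3.55 CPM. These limits cover counting error only. Foxp3 was between 166 and 672 CPM in every Treg library and at most 8.20 CPM in the others. Il7r, which encodes CD127, separated SP/CD127hi Tregs (1236, 1082 and 1198 CPM) from SP/CD127-/lo Tregs (270, 303 and 359.7 CPM) but not the DLN subsets, where CD127hi Tregs had 635, 476 and 678 CPM and CD127-/lo Tregs 266, 784 and 516 CPM. EGFP had at most 5 counts in 3 DLN libraries, 1 in each DLN subset. With 3 naive mice for each tissue and several mice pooled per sample, the 3 libraries of a naive subset cannot come from separate mice. Otherwise the relation of mice to libraries is not clear from the sources. The p-values below therefore measure the spread between these libraries, which may in part be technical.

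Most members were highest in graft Tregs or SP/CD127hi Tregs, both from tolerant mice. S100a10, S100a11 and Lgals1 had their highest mean in graft Tregs, and S100a4, S100a6, Vim and Ahnak had it in SP/CD127hi Tregs with graft Tregs second. Exceptions were Lgals3, highest in SP/tolerant CD45+CD4- cells, and Crip1, highest in SP/naive CD4+ T cells. Averaged over the members after each was standardised over the subset means of log2 CPM, the level was 1.29 in graft Tregs, 1.17 in SP/CD127hi Tregs, 0.79 in SP/CD127-/lo Tregs and 0.24 in DLN/CD127hi Tregs. The other 7 subsets were below 0, among them the DLN/CD127-/lo Tregs of tolerant mice at -0.461, below SP/naive Tregs (-0.332) and DLN/naive Tregs (-0.405), with SP/tolerant CD4+ T cells lowest at -0.85. No cause of this order was tested, and in bulk libraries fewer cells of a type and less RNA per cell cannot be told apart.

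**Figure D1:**
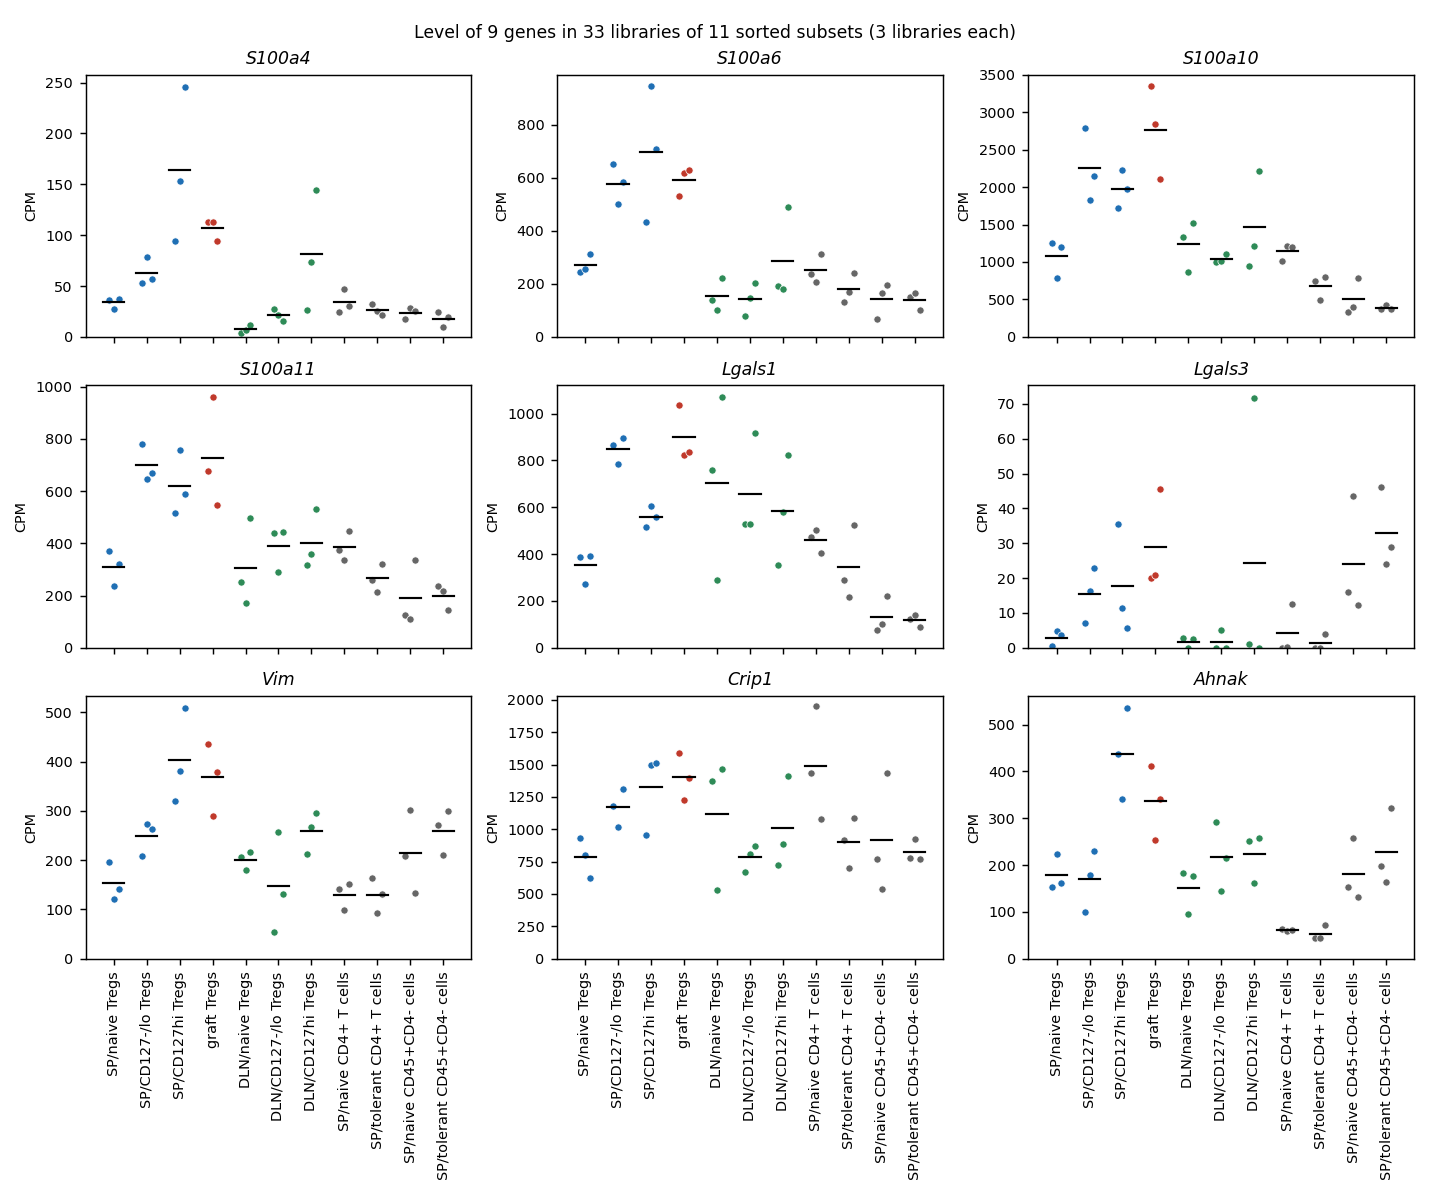
CPM of each member in each library (points) and the mean of the 3 libraries (lines), with spleen Tregs in blue, graft Tregs in red, DLN Tregs in green and cells without Foxp3 in grey. All 9 members were higher in every graft Treg and SP/CD127hi Treg library than in every SP/naive Treg library.

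Per kilobase of exon, S100a10 was the most abundant member, with a mean of 1090 CPM per kb over the subsets, followed by S100a11 (801), Lgals1 (570.0) and Crip1 (468). S100a6 (229), S100a4 (90.4), Vim (48.2), Ahnak (10.2) and Lgals3 (7.58) were lower on this scale. Range differed as well. The highest subset mean was 25.6 times the lowest for Lgals3, 21.4 times for S100a4, 8.21 times for Ahnak and 7.68 times for Lgals1, but only 1.9 times for Crip1. For Crip1 the SD between subset means of log2 CPM, 0.337, was below the SD between libraries of a subset, 0.435, whereas for S100a4 these were 1.23 and 0.57 and for S100a10 0.89 and 0.38. Lgals3 was noisy, with an SD within subsets of 1.67 on the log2 scale and 0 counts in 7 libraries. Most neighbours in the order of means overlapped. Of the 10 pairs of neighbouring subsets, the libraries did not overlap in 2 for Lgals1, in 1 each for S100a4, S100a6, S100a10 and Ahnak, and in 0 for the other 4 members.

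**Figure D2:**
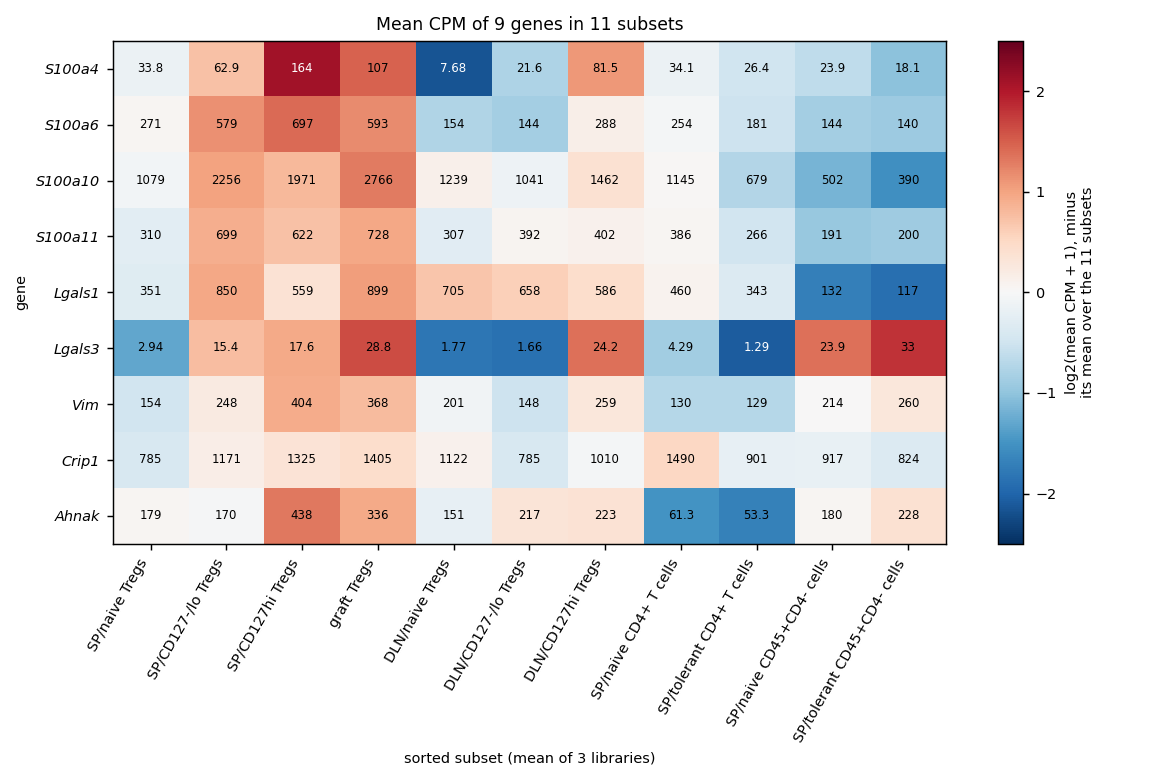
Mean CPM of each member (rows) in each subset (columns, 3 libraries each), coloured by log2(mean CPM + 1) minus its mean over the 11 subsets. All 9 rows are red in SP/CD127hi and graft Tregs and 8 of 9 in SP/CD127-/lo Tregs, and Ahnak is the row in which SP/CD127-/lo Tregs (170.2 CPM) sit at the level of SP/naive Tregs (179 CPM).

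Graft Tregs were compared with SP/naive Tregs, which asks how Tregs at the site of the tolerated graft differ from those of untreated mice. Every member was higher in all 3 graft libraries than in all 3 SP/naive libraries, 9 of 9 against 3.0% of the 25347 genes tested and 7.98% of the 8348 genes with a mean of at least 10 CPM. The members were chosen with earlier results of these data known, so this count is a description. S100a10 was the member that passed the test. It had 3351, 2838 and 2108 CPM in graft Tregs and 1247, 791 and 1199 CPM in SP/naive Tregs, a log2 fold change of 1.36 ± 0.29 (SE, n = 3 and 3 libraries, edgeR quasi-likelihood test, adjusted p = 0.0068). Adjusted p-values under 0.05 were found for 0.13% of all genes in this comparison. The call was lost without SP/naive replicate 2 (adjusted p = 0.192) and without graft replicate 1 (adjusted p = 0.126), with log2 fold changes of 1.18 and 1.197. It was also lost with the likelihood ratio test, with ComBat-Seq and with a filter of 10 counts in 3 libraries.

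The other 3 S100 genes were also above the naive range, without passing the test. S100a11 had 676, 963 and 546 CPM in graft and 370, 238 and 323 CPM in SP/naive Tregs (log2 fold change 1.23 ± 0.43). S100a6 had 532, 618 and 630 CPM against 245, 255 and 314 CPM (1.13 ± 0.47), and S100a4 had 113, 113 and 94.2 CPM against 36.6, 27.4 and 37.4 CPM (1.66 ± 0.92). The graft libraries of these 3 genes lay above the naive ones without overlap. Lgals1 had 1039, 822 and 835 CPM in graft and 388, 273 and 394 CPM in SP/naive Tregs (1.35 ± 0.40), and Lgals3, near the limit of detection in naive Tregs, had 20.04, 20.9 and 45.6 CPM against 0.551, 4.74 and 3.54 CPM (3.28 ± 1.66). Among the cytoskeletal members the log2 fold changes were 1.26 ± 0.52 for Vim, 0.91 ± 0.53 for Ahnak and 0.84 ± 0.31 for Crip1. The median over the members was 1.26, and over all genes tested it was 0.00.

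Markers of other cells were looked for in the graft libraries. Summed over the 14 macrophage markers, graft Tregs had 432 to 1167 CPM and SP/naive Tregs 358 to 691 CPM, most of it from Ctss. Of the 14, 4 were at 0 counts in all 3 graft libraries, and Csf1r, a defining receptor of macrophages, was among them. Lyz2, another gene of that list, varied from 0 in graft replicate 2 to 427 CPM in graft replicate 3, the library that also had the most Lgals3. Kidney epithelial markers summed to 25.3 to 930 CPM in graft and 8.46 to 37.6 CPM in SP/naive Tregs, with graft replicate 2 highest. Kap, a gene of the kidney proximal tubule, made up most of it and was the 1 of 9 tested genes of that list called in graft against SP/naive Tregs, with 114, 887 and 13.4 CPM against 0 counts in all 3 libraries (adjusted p = 3.96e-06 in edgeR's quasi-likelihood test). Among fibroblast and endothelial markers the sums were 55.7 to 212 and 69.7 to 103 CPM, with 3 of 10 genes at 0 in all graft libraries, and for B cell markers they were 615 to 1241 and 856 to 1380 CPM. The share of mitochondrial reads, a sign of RNA quality, was 4.33 to 6.74% in graft and 1.81 to 2.42% in SP/naive Tregs. The part of these markers and reads in the levels of the members was not tested.

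In the spleen of tolerant mice both CD127 subsets were compared with the same SP/naive Treg libraries, which graft Tregs were compared with too, so the 3 comparisons share their controls. Against SP/naive Tregs, 9 of 9 members were higher in every SP/CD127hi library (3.58% of genes tested, 7.5% of those with at least 10 CPM) and 8 of 9 in every SP/CD127-/lo library (4.02% and 10.2%). No member passed the test in either comparison, where 0.0197% and 0.071% of all genes were called, 5 and 18 genes. An unadjusted p under 0.05 was found for 7 members in SP/CD127hi Tregs (5.09% of all genes) and for 4 in SP/CD127-/lo Tregs (5.46%). In DESeq2, 1 member was called in SP/CD127hi Tregs, S100a4 with an adjusted p of 0.0014, and 0 in SP/CD127-/lo Tregs, of 33 and 38 genes called in all.

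Of the S100 genes, S100a4 had the largest log2 fold change in SP/CD127hi Tregs, with 93.8, 153 and 246 CPM against 36.6, 27.4 and 37.4 CPM in SP/naive Tregs (log2 fold change 2.28 ± 0.94). It had 53.4, 78.5 and 56.9 CPM in SP/CD127-/lo Tregs (0.90 ± 0.91). S100a6 had 435, 946 and 709 CPM in SP/CD127hi (1.36 ± 0.47) and 652, 501 and 583 CPM in SP/CD127-/lo Tregs (1.09 ± 0.47), so that the subsets overlapped. S100a10 was 1717, 2228 and 1970 CPM in SP/CD127hi (0.87 ± 0.29) and 2790, 1829 and 2148 CPM in SP/CD127-/lo Tregs (1.06 ± 0.29), and for S100a11 the log2 fold changes were 1.003 ± 0.43 and 1.17 ± 0.43. Lgals1 had 514, 605 and 559 CPM in SP/CD127hi Tregs (0.67 ± 0.40) and 865, 787 and 897 CPM in SP/CD127-/lo Tregs (1.27 ± 0.40). Lgals3 gave 2.57 ± 1.61 and 2.38 ± 1.60, from levels of 35.7, 11.3 and 5.79 CPM and of 7.06, 16.4 and 22.9 CPM. Vim gave 1.39 ± 0.52 and 0.69 ± 0.52, and Crip1 0.76 ± 0.31 and 0.58 ± 0.31. Ahnak separated the subsets, with 437, 340.0 and 536 CPM in SP/CD127hi Tregs (1.29 ± 0.54) and 100.3, 180 and 231 CPM in SP/CD127-/lo Tregs, which overlapped the 153 to 224 CPM of SP/naive Tregs.

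Measures of library composition moved with these differences. The share of mitochondrial reads was 6.74, 4.33 and 5.30% in graft, 2.71, 3.53 and 3.20% in SP/CD127hi and 4.35, 2.33 and 3.18% in SP/CD127-/lo Tregs against 2.42, 2.33 and 1.81% in SP/naive Tregs, without overlap for graft and SP/CD127hi Tregs. The TMM factor, a scaling factor for composition, was 0.876 to 0.942 in graft and 0.964 to 1.08 in SP/naive Tregs. With library totals in place of this factor, the median log2 fold change of the members against SP/naive Tregs was 1.10 in graft Tregs. It was 1.23 in SP/CD127hi and 0.90 in SP/CD127-/lo Tregs. The part of the mitochondrial share was not tested. The share of read pairs outside annotated genes was 13.2, 24.9 and 25.2% in SP/CD127-/lo Tregs, 29.1, 33.5 and 28.8% in SP/CD127hi Tregs, 25.4, 31.8 and 35.5% in graft Tregs and 34.6, 40.2 and 28.2% in SP/naive Tregs. With this share as a covariate, an alternative added after seeing the data, the median log2 fold change of the members against SP/naive Tregs went from 1.06 to 0.59 in SP/CD127-/lo Tregs, from 1.29 to 1.24 in SP/CD127hi Tregs and from 1.26 to 1.18 in graft Tregs. S100a10 remained called in graft Tregs in that fit (1.22, adjusted p = 0.042). Of the 14 macrophage genes, 0 were called in SP/CD127hi against SP/naive Tregs and 12 had log2 fold changes above 0. Cd68 was 15.7, 26.0 and 29.8 CPM in SP/CD127hi and 0.826, 1.35 and 8.84 CPM in SP/naive Tregs, and the macrophage sum was 558 to 845 CPM against 358 to 691 CPM, with 0 of the 14 markers at 0 counts in all SP/CD127hi libraries. Cd79a, a B cell marker, was among the genes called in SP/CD127hi against SP/naive Tregs, with 15.5, 2.75 and 12.2 CPM against 0 counts in all 3 libraries (adjusted p = 0.0018 in edgeR's quasi-likelihood test). In SP/CD127-/lo Tregs the sums lay above those of SP/naive Tregs without overlap for macrophage markers (743 to 1358 CPM), for B cell markers (1567 to 1682 against 856 to 1380 CPM) and for T cell markers (6124 to 9636 against 2487 to 5292 CPM). Of these lists, Trac of the T cell markers was the 1 gene called higher there, and 0 of 14 macrophage and 0 of 6 B cell genes were, while the B cell gene Ms4a1 was called lower, with overlap. Their part was not tested.

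**Figure D3:**
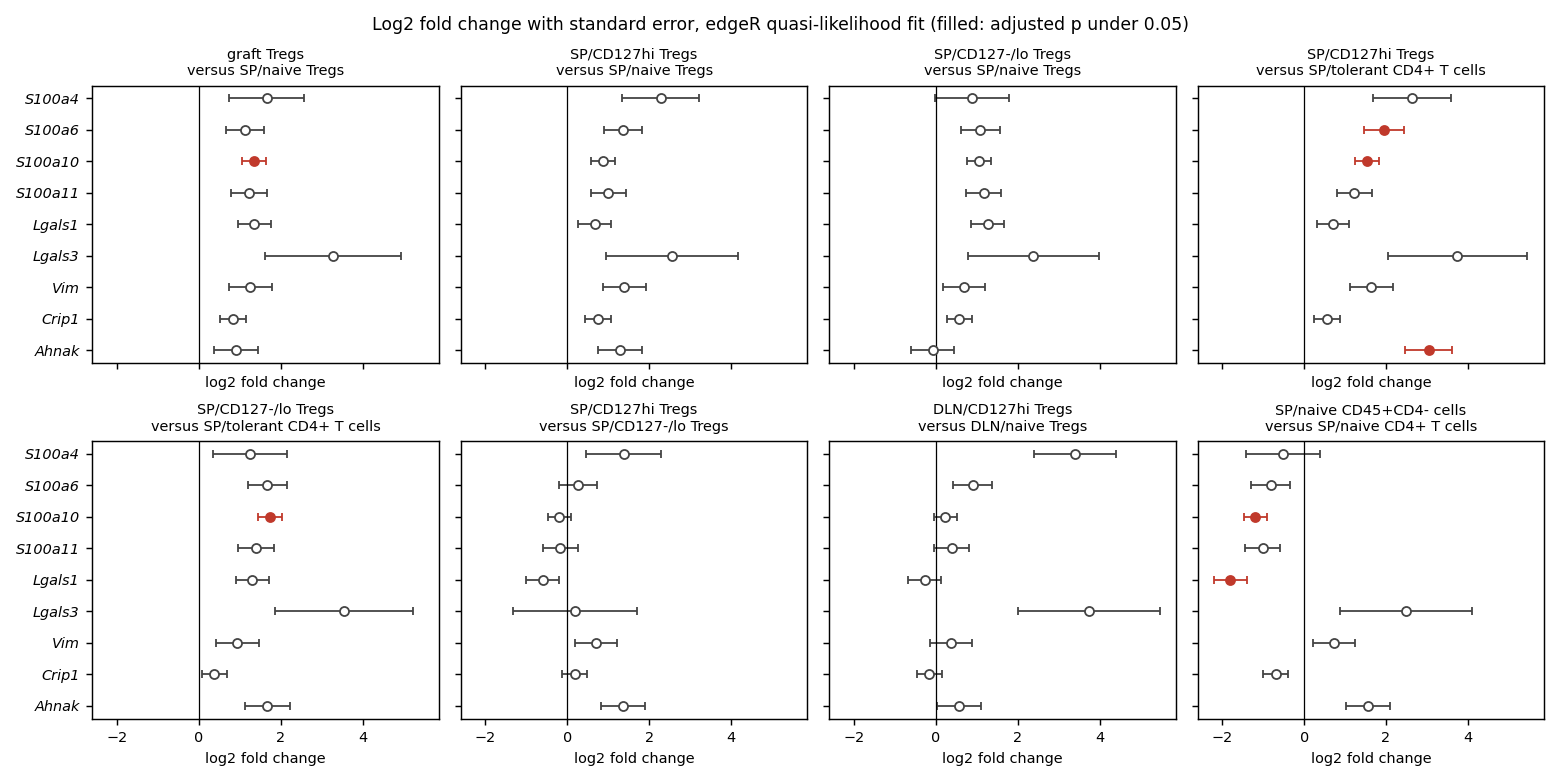
Log2 fold change of each member (points) with its standard error (bars) in 8 comparisons, where filled red points have an adjusted p under 0.05. Points lie to the right of 0 for 9 of 9 members in graft and SP/CD127hi Tregs against SP/naive Tregs and in both splenic CD127 subsets against SP/tolerant CD4+ T cells.

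The comparison of SP/CD127hi with SP/CD127-/lo Tregs asks what separates CD127hi Tregs from the other Tregs of the same spleens. S100a4, Vim and Ahnak were higher in every CD127hi library, 3 of 9 members against 6.07% of the genes tested, and Lgals1 was lower in every one, 1 of 9 against 4.53%. Vim had 321, 380.1 and 510 CPM in CD127hi and 209, 273 and 263 CPM in CD127-/lo Tregs. Log2 fold changes were 1.38 ± 0.91 for S100a4, 1.36 ± 0.54 for Ahnak, 0.70 ± 0.51 for Vim and -0.60 ± 0.40 for Lgals1. No member was called, with 0.0907% of all genes called, and at an unadjusted p under 0.05 the count was 1, Ahnak, against 6.74% of all genes. DESeq2 and every other alternative called 0 as well. The T cell markers had sums of 2963 to 3563 CPM in CD127hi and 6124 to 9636 CPM in CD127-/lo Tregs, and 2 of the 5, Cd3d (adjusted p = 0.0083) and Cd3g (adjusted p = 0.0107), fell. The B cell gene Ms4a1 was called higher in CD127hi Tregs, with 64.1 CPM in replicate 1 and 0 CPM in replicate 2, and the groups overlapped. The macrophage gene Cd68 had 15.7, 26.0 and 29.8 CPM in CD127hi and 3.39, 2.01 and 9.09 CPM in CD127-/lo Tregs. The macrophage sums, 558 to 845 and 743 to 1358 CPM, overlapped. The share of read pairs outside genes was 28.8 to 33.5% in CD127hi and 13.2 to 25.2% in CD127-/lo Tregs, without overlap. Their part in the levels of the members was not tested.

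Graft Tregs were also compared with each splenic subset, in comparisons that share the graft libraries. Against SP/CD127-/lo Tregs, S100a4 (log2 fold change 0.76 ± 0.90), Vim (0.57 ± 0.51) and Ahnak (0.98 ± 0.53) were higher in every graft library, 3 of 9 members against 3.15% of genes. Against SP/CD127hi Tregs this held for Lgals1 alone (0.68 ± 0.40), 1 of 9 against 3.18%. Neither comparison called a member, with 0.0829% and 0.103% of all genes called and 0 members at an unadjusted p under 0.05, and DESeq2 called 0 in both.

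Against the CD4+ T cells without Foxp3 of the same tolerant spleens, all 9 members had log2 fold changes above 0 in both Treg subsets. Of these, 3 passed the test in SP/CD127hi and 1 in SP/CD127-/lo Tregs. SP/CD127hi Tregs had 3 members called, all higher, where 0.324% of all genes were called. Ahnak had 437, 340.0 and 536 CPM in SP/CD127hi Tregs and 43.1, 44.4 and 72.4 CPM in SP/tolerant CD4+ T cells, a log2 fold change of 3.04 ± 0.57 (adjusted p = 0.00033 in edgeR's quasi-likelihood test). S100a10 had 1717, 2228 and 1970 CPM against 751, 488 and 798 CPM (1.54 ± 0.29, adjusted p = 0.00036), and S100a6 had 435, 946 and 709 CPM against 132, 170.2 and 241 CPM (1.95 ± 0.48, adjusted p = 0.030). For Ahnak and S100a10 the call stood without any 1 of the 6 libraries. With the likelihood ratio test only Ahnak kept the call, and with ComBat-Seq, which took the sequencer as batch, no member did. S100a6 lost it without SP/CD127hi replicate 2 (adjusted p = 0.245) or 3 (0.116) and without SP/tolerant CD4+ replicate 1 (0.347), 2 (0.168) or 3 (0.0663). In all, 7 of 9 members did not overlap (6.98% of genes). S100a4 (2.63 ± 0.95), Lgals3 (3.74 ± 1.70), Vim (1.64 ± 0.53) and S100a11 (1.23 ± 0.43) were among these without passing the test, and Lgals1 (0.70 ± 0.40) and Crip1 (0.56 ± 0.31) overlapped.

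SP/CD127-/lo Tregs had 1 member called against the same CD4+ T cells, S100a10, with 2790, 1829 and 2148 CPM and a log2 fold change of 1.73 ± 0.29 (adjusted p = 1.51e-05 in edgeR's quasi-likelihood test), where 0.284% of all genes were called. This call stood without any 1 of the 6 libraries. Here 8 of 9 members did not overlap, against 5.05% of genes, with S100a6 at 1.68 ± 0.48, Ahnak at 1.68 ± 0.54, S100a11 at 1.40 ± 0.43 and Lgals1 at 1.31 ± 0.40 on the log2 scale. Within the compared libraries alone, the same test called 5 members here among 342 of 13783 genes and 6 in SP/CD127hi Tregs among 306 of 14266. The likelihood ratio test called 0 and 1, among 38 and 37 genes. Some markers of other cells were called higher in both comparisons. Lyz2 was called in SP/CD127hi Tregs (211, 144 and 55.9 CPM against 0, 0 and 11.8 CPM, adjusted p = 5.65e-05) and in SP/CD127-/lo Tregs (287, 0.503 and 51.6 CPM, with overlap, adjusted p = 0.0001). Of 6 B cell genes, 2 were called higher in SP/CD127hi Tregs (Ms4a1 and Cd79b, with overlap) and 3 in SP/CD127-/lo Tregs (Cd79b, Ighm and Igkc, without overlap), and the B cell sum was 1101 to 1326 and 1567 to 1682 CPM against 535 to 683 CPM. The share of mitochondrial reads was 2.71 to 3.53% in SP/CD127hi Tregs and 2.06 to 2.53% in SP/tolerant CD4+ T cells. Their part in the levels of the members was not tested. The share of read pairs outside genes was 23.4, 32.6 and 24.6% in SP/tolerant CD4+ T cells, and with it as a covariate S100a10 had a log2 fold change of 1.51 in SP/CD127-/lo and 1.72 in SP/CD127hi Tregs and was called in both.

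In CD4+ T cells without Foxp3 no member rose in tolerant mice. Compared with SP/naive CD4+ T cells, all 9 members had log2 fold changes below 0 in SP/tolerant CD4+ T cells, with a median of -0.49 against -0.23 over all genes tested and 0.01 over genes with at least 10 CPM. With library totals in place of TMM factors 8 of 9 were below 0, with Vim at 0.14 and a median of -0.31, and with the share of reads outside genes as a covariate the median was -0.80. The TMM factor was 0.871 to 0.942 in naive and 0.953 to 1.06 in tolerant cells. The share of ribosomal protein reads was 5.59 to 11.2% and 3.83 to 5.47%, also without overlap, whereas the shares of mitochondrial reads and of reads outside genes overlapped. The part of the ribosomal protein reads was not tested. S100a10 (1018, 1212 and 1204 CPM in naive and 751, 488 and 798 CPM in tolerant cells, log2 fold change -0.75 ± 0.29) and S100a11 (-0.54 ± 0.43) did not overlap, 2 of 9 members against 5.18% of genes. No member was called by edgeR or DESeq2, with 0.107% of all genes called, and 2 members had an unadjusted p under 0.05, against 7.01% of all genes. In CD45+CD4- cells, 0 of 9 members separated tolerant from naive mice, against 3.75% of genes higher and 3.04% lower, with 0 called by edgeR or DESeq2, 0 at an unadjusted p under 0.05 and 0.0355% of all genes called.

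Among naive mice, Tregs and CD4+ T cells did not overlap in Ahnak, Crip1 and Lgals1, none of which passed the test. Ahnak was higher in every SP/naive Treg library (153, 224 and 161 CPM against 63.0, 58.9 and 61.9 CPM, log2 fold change 1.55 ± 0.54), 1 of 9 members against 5.35% of genes. Crip1 (933, 799 and 624 CPM against 1436, 1957 and 1076 CPM, -0.92 ± 0.31) and Lgals1 (388, 273 and 394 CPM against 474, 503 and 405 CPM) were lower in every one, 2 of 9 against 4.7%. None was called, with 0.264% of all genes called and 2 members at an unadjusted p under 0.05 (6.71% of all genes), whereas DESeq2 called Ahnak (adjusted p = 0.0067) among 185 genes. The macrophage gene Lyz2 was called higher in the same Treg libraries, with 81.5, 26.4 and 10.9 CPM against 0, 0.317 and 0 CPM (adjusted p = 2.56e-07), as was Ighm, and their part was not tested.

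SP/naive CD45+CD4- cells, whose B cell markers summed to 8176 to 11550 CPM and T cell markers to 706 to 1923 CPM, were lower in Lgals1 and S100a10. Lgals1 had 75.5, 102 and 219 CPM against 474, 503 and 405 CPM in SP/naive CD4+ T cells (log2 fold change -1.80 ± 0.41, adjusted p = 0.0033) and S100a10 had 327, 393 and 786 CPM against 1018, 1212 and 1204 CPM (-1.19 ± 0.29, adjusted p = 0.0090), the 2 members called by edgeR's quasi-likelihood test, where 1.04% of all genes were called. Both calls were lost without CD45+CD4- replicate 1 (adjusted p = 0.101 for Lgals1 and 0.199 for S100a10) or replicate 2 (0.0508 and 0.119). S100a6 (-0.82 ± 0.47) was also lower without overlap, 3 of 9 members against 5.74% of genes, and Ahnak (153, 257 and 131 CPM, 1.55 ± 0.54) was higher, 1 of 9 against 7.13%, and was called by DESeq2 (adjusted p = 0.00093) with Lgals1 and S100a10. Lgals3 was 15.9, 43.7 and 12.2 CPM in these cells and 0, 0.317 and 12.5 CPM in the CD4+ T cells.

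In the DLN no member passed the test between Treg subsets. S100a4 had 4.26, 7.01 and 11.8 CPM in DLN/naive, 27.3, 21.9 and 15.5 CPM in DLN/CD127-/lo and 26.3, 74.1 and 144 CPM in DLN/CD127hi Tregs, so that both tolerant subsets lay above the naive one and overlapped each other. The share of mitochondrial reads was 1.45, 2.95 and 1.71% in DLN/CD127hi Tregs, above the 1.15 to 1.25% of DLN/CD127-/lo and the 0.98 to 1.37% of DLN/naive Tregs without overlap, and its part was not tested. Against DLN/naive Tregs the log2 fold change was 3.395 ± 1.003 in DLN/CD127hi (adjusted p = 0.0708 in edgeR's quasi-likelihood test) and 1.48 ± 0.95 in DLN/CD127-/lo Tregs (adjusted p = 0.611), comparisons that share the naive libraries and in which sex and tolerance cannot be told apart. S100a4 was the 1 member of 9 without overlap in each, against 5.08% and 4.47% of genes. DESeq2 called it in DLN/CD127hi Tregs (adjusted p = 1.2e-08), and so did the test used here without DLN/CD127hi replicate 1 (log2 fold change 3.82, adjusted p = 0.0282). With only the DLN libraries that had over 5 counts of EGFP, which leaves 2 per subset and was added after seeing the data, it was 2.38 (adjusted p = 0.423).

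Between the CD127 subsets of the DLN, 0 of 9 members did not overlap, against 2.26% of genes higher and 3.11% lower in CD127hi Tregs. S100a4 (log2 fold change 1.91 ± 0.94) and S100a6 (194, 180 and 490 CPM in CD127hi against 79.6, 148 and 203 CPM in CD127-/lo Tregs, 1.004 ± 0.47) overlapped between the subsets, and with the libraries of over 5 counts of EGFP the log2 fold changes were 1.47 and 0.11. Lgals3 in DLN/CD127hi Tregs came from a single library, with 0.973, 71.7 and 0 CPM. That library, replicate 2, also had the highest macrophage sum of the DLN, 2500 CPM where the other DLN libraries had 410 to 1659 CPM. Markers of other cells moved with the DLN subsets. The B cell sum was 1497 to 6211 CPM in DLN/CD127hi, 756 to 1436 CPM in DLN/CD127-/lo and 454 to 902 CPM in DLN/naive Tregs, and against DLN/naive Tregs 4 of 6 B cell genes rose in DLN/CD127hi and 3 of 6 in DLN/CD127-/lo Tregs. Cd79b, part of the B cell receptor, had 199, 135 and 119 CPM in DLN/CD127hi and 0, 2.10 and 0 CPM in DLN/naive Tregs. Of 14 macrophage genes, 13 had log2 fold changes above 0 in the same comparison and 1, Fcer1g, was called. Between the CD127 subsets themselves, 1 of 14 macrophage genes was called, Tyrobp, with 78.8, 84.3 and 105 CPM in DLN/CD127hi and 0 CPM in all 3 DLN/CD127-/lo libraries (adjusted p = 5.71e-07), and 1 of 6 B cell genes, Igkc, with 4607, 620.2 and 546 CPM against 15.8, 201 and 130.02 CPM (adjusted p = 1.17e-13). The part of these cells in the S100a4 values was not tested. The quasi-likelihood test called 0 members in the 3 DLN comparisons, where 0.418% (CD127hi against CD127-/lo), 0.951% (CD127hi against naive) and 0.355% (CD127-/lo against naive) of all genes were called, with 3, 2 and 0 members at an unadjusted p under 0.05 (8.75%, 10.6% and 8.79% of all genes). DESeq2 called S100a4 in the first 2, among 730 and 959 genes where the quasi-likelihood test called 106 and 241. Medians over the members were 0.49, 0.39 and -0.10 and depended on the processing. With the libraries of over 5 counts of EGFP they were 0.105, 0.178 and 0.073, and the third was also above 0 with DESeq2 (0.029), RLE factors (0.032), library totals (0.025) and the share of reads outside genes as a covariate (0.203).

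The CD127hi effect was also compared between spleen and DLN in 1 test of the difference. No member was called, with 0.118% of all genes called and 0 members at an unadjusted p under 0.05, and DESeq2 called 0. Ahnak differed by 1.32 ± 0.75 on the log2 scale toward the spleen (adjusted p = 0.67 in edgeR's quasi-likelihood test) and S100a10 by -0.68 ± 0.40 (adjusted p = 0.68). A different CD127hi effect in spleen and DLN was therefore not shown for these genes, in DLN libraries that Il7r did not separate.

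Related genes of the same families were measured beside the members. In the comparisons of splenic and graft Tregs with SP/naive Tregs and with each other, none of 13 other S100 genes, 7 other galectins, 11 annexins or 14 intermediate filament and LIM genes was called. Of 38 actin cytoskeleton genes, 1 rose in SP/CD127-/lo against SP/naive Tregs, Tmsb4x, the main actin-sequestering thymosin, with 40144, 24210 and 31022 CPM against 21814, 16509 and 21491 CPM (log2 fold change 0.67 ± 0.14, adjusted p = 0.0039 in edgeR's quasi-likelihood test). Pfn1, which binds actin monomers, was lower in SP/CD127hi than in SP/CD127-/lo Tregs, with 481, 394 and 419 CPM against 2653, 799 and 844 CPM (-1.73 ± 0.41, adjusted p = 0.043). In graft against SP/naive Tregs, 5 of the 13 other S100 genes had log2 fold changes above 0 and 4 below, as had 5 and 2 of the 7 other galectins tested, 8 and 2 of the 11 annexins, 7 and 5 of the 14 filament and LIM genes and 24 and 14 of the 38 actin genes.

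Markers of resting and activated lymphocytes were read in the same libraries. The share of all genes called was 0.13% in graft and 0.0197% in SP/CD127hi against SP/naive Tregs. Calls of these lists in comparisons not named here, in either direction, are left out. Of 18 activated or memory T cell genes, 0 were called in SP/CD127hi against SP/naive Tregs and 1 rose in graft against SP/naive Tregs, Id2, a transcriptional regulator of effector cells, with 1108, 1181 and 389 CPM against 143, 160.03 and 200.02 CPM (log2 fold change 2.41 ± 0.45, adjusted p = 0.00053 in edgeR's quasi-likelihood test). In SP/CD127hi Tregs against SP/tolerant CD4+ T cells, where 0.324% of all genes were called, 3 of the 18 rose. In the same comparison 3 of 11 resting lymphocyte genes fell. Klrg1, a receptor of terminal effector cells, had 144, 129 and 187 CPM against 0 counts in all 3 libraries. Satb1, a chromatin organiser of immature T cells, had 207, 253 and 363 CPM against 1030, 882 and 800 CPM (-1.72 ± 0.40, adjusted p = 0.014).

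The genes whose subset means were most like the average of the members were read from 11269 genes with a mean of at least 10 CPM in at least 1 subset. Over the 11 subset means of log2 CPM, the 10 highest Pearson correlations outside the members were those of Mlf1 (0.90), Klrg1 (0.88), Prrc2b (0.88), Patl2 (0.88), Acot7 (0.87), Ccl1 (0.86), Raph1 (0.86), Arl5a (0.85), Mt1 (0.84) and Timm8a2 (0.84). Members themselves correlated with their own average at 0.94 for S100a6 down to 0.49 for Lgals3. The points share libraries and depth, and with 11 points such values are a description.

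Within subsets a set of 5 members deviated together, and the other 4 did not form a second set. Each library's deviation from its subset mean in log2 CPM was correlated between members over the 33 libraries, which share depth and composition. S100a6, S100a10, S100a11, Lgals1 and Crip1 deviated together, with r from 0.485 to 0.826 in their 10 pairs, highest for S100a10 with Lgals1. The 6 pairs among S100a4, Lgals3, Vim and Ahnak had r from -0.12 to 0.27, and the 20 pairs of these with the set of 5 from -0.24 to 0.41. S100a4 had r of 0.26 to 0.41 with the set of 5 and -0.12 to 0.18 with Lgals3, Vim and Ahnak. This split was chosen after the values were seen and was given no test. The set of 5 also moved with library composition. Its r was -0.63 to -0.30 with the share of reads outside genes and -0.76 to -0.33 with the TMM factor. Levels were themselves divided by the TMM factor, so a negative r with it is in part built in. For the other 4, r was -0.18 to 0.11 with that share and -0.27 to 0.30 with the TMM factor. Among these 4, S100a4 had r = 0.52 with the share of ribosomal protein reads and Vim r = -0.55 with library depth. S100a4, Vim and Ahnak, which were higher in every SP/CD127hi than SP/CD127-/lo Treg library, were outside the set of 5, and Lgals1, which was lower, was in it.

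**Figure D4:**
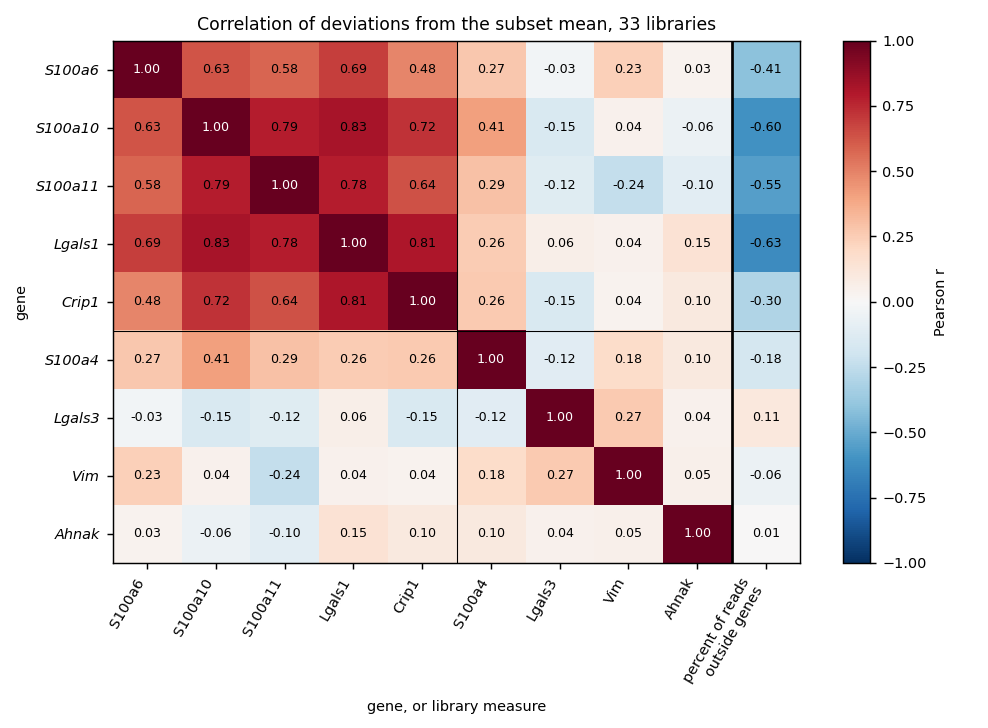
Pearson correlation over 33 libraries of the deviations of log2 CPM from the subset mean, between members (first 9 columns) and with the percent of read pairs outside genes (last column). The block of S100a6, S100a10, S100a11, Lgals1 and Crip1 stands out at 0.485 to 0.826, and its last column is negative throughout.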

How the data were processed

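Bulk RNA-Seq libraries (SMART-Seq v4 on 1000 sorted cells, Nextera XT, 2 × 75 bases) were analysed from the deposited gene tables. Per the labels and the methods, the authors checked reads with FastQC, used Trim Galore for trimming and STAR for alignment (mm10 plus the EGFP sequence), and counted read pairs on genes; the methods name HTSeq, while the files have STAR's layout. The deposited values are raw counts, not normalized, and those summed over the strands were used. Read pairs without a gene were left out of totals (37.0% to 69.2% of a library). The library protocol does not mark strand.

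The 25347 genes that reached 1 CPM in 1 library or more were fitted in edgeR 4.0.16 (R 4.3.3) with TMM factors and 1 mean per subset over all 33 libraries. For this filter CPM was taken from library totals without TMM factors. The 15 comparisons and 1 interaction were tested by the quasi-likelihood test, and p-values were adjusted by Benjamini-Hochberg over all genes tested, called under 0.05. The standard error of a log2 fold change was taken from the test statistic. Log2 CPM used a prior count of 2. All 9 members passed the filter. The tests were tested on simulated data. Positions came from GENCODE vM21, and 42 features had no symbol there. The members and gene lists were chosen with earlier results of these data known. Genes outside the members are named if called without overlap, at most 4 per list, or as the 10 most like the members. Il7r, Foxp3 and EGFP are named as checks of the sort. Csf1r, Cd68 and Ctss, which were not called, and Lyz2, Ms4a1 and Cd79b where they overlapped or were not called, fall outside this rule and were chosen after their values were seen. The alternatives were the likelihood ratio test, DESeq2 1.42.0, RLE factors, library totals, both other filters (none, or 10 counts in 3 libraries), the compared libraries only, ComBat-Seq (sva 3.50.0) with the sequencer as batch, a replicate block and leaving out each library. Replicates were distinct libraries, with chi-square per degree of freedom of at least 24.7 in every pair of a subset. Figures were drawn with matplotlib.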

Additional observations from a re-analysis of the deposited data

How the results depend on the processing

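Calls of members depended on the test, as did those over all genes. In graft against SP/naive Tregs the count of 1 became 0 with the likelihood ratio test, ComBat-Seq and the filter of 10 counts in 3 libraries, and 2 with DESeq2, where 33 of all genes became 27, 9, 6 and 183. In SP/CD127hi Tregs against SP/tolerant CD4+ T cells the count of 3 became 1 with the likelihood ratio test, 5 with DESeq2, 6 with the compared libraries alone and 0 with ComBat-Seq, where 82 of all genes became 37, 269, 306 and 18, and in SP/CD127-/lo Tregs the count of 1 became 0, 4 and 5 with the first 3 of these, where 72 of all genes became 38, 222 and 342. In SP/naive CD45+CD4- against CD4+ cells the count of 2 became 0 with the likelihood ratio test and ComBat-Seq, 1 with library totals or the compared libraries alone and 3 with DESeq2, where 263 of all genes became 216, 116, 252, 396 and 615. Counts of 0 became 1 with DESeq2 in SP/CD127hi against SP/naive Tregs, in SP/naive Tregs against CD4+ T cells and in DLN/CD127hi against both other DLN subsets, and in DLN/CD127hi against DLN/naive Tregs also with the likelihood ratio test, the filter of 10 counts in 3 libraries and the share of reads outside genes as a covariate. Leaving out each library gave 0 to 1 in graft against SP/naive Tregs, 0 to 1 in DLN/CD127hi against DLN/naive Tregs and 0 to 2 in SP/naive CD45+CD4- against CD4+ cells. The cause was not tested. Same-numbered libraries did not deviate together (r from -0.19 to 0.31), so the numbers were not taken to pair them; with the replicate block 1 member, S100a10, was called in SP/CD127-/lo against SP/naive Tregs where 0 were without it and 18 of all genes became 35, and no other call changed. Apart from the medians given above for DLN Tregs and Vim in SP/tolerant CD4+ T cells, of the named log2 fold changes of single members, 0 of 626 values under the other settings and 0 of 384 with a library left out changed sign. At these depths Lgals3 was near its limit in many libraries, which leaves its differences uncertain.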
